A study of Mus musculus with 6 samples.

Results

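Matrix metalloproteinases are zinc-dependent enzymes that cut collagens and other matrix proteins, and tissue inhibitors of metalloproteinases (TIMPs) are small secreted proteins that block them by binding the active site. Their RNAs were examined on oligonucleotide arrays in sorted ovarian cells of the Gli1 lineage from adult mice. The set comprised 9 named genes, the enzymes Mmp2, Mmp9, Mmp11, Mmp14, Mmp19 and Mmp23 and the inhibitors Timp1, Timp2 and Timp3. Every probe set whose only gene symbol in the platform annotation was one of these was taken, which gave 23 of 45037 probe sets and 9 of 18193 genes.

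All mice were females of strain 129S6/SvEvTac, 2 months old at collection, carrying Gli1-CreERT2 and Rosa-LSL-tdTomato. Cre in these mice becomes active only under tamoxifen and only in cells that use the Gli1 promoter, a target of hedgehog signalling, so the red reporter marks Gli1-expressing cells of the treatment window and their progeny. The Mesonephros_theca group (3 samples) received tamoxifen on 3 fetal days, E12.5, then E14.5, and last E16.5. The Ovary_theca group (3 samples) was treated from postnatal day 1 to day 3 by dosing the lactating mother. Tissue of origin, as labelled, and time of treatment changed together, so their effects cannot be told apart. Nothing in the labels ties the samples to separate animals, so the spread behind each p-value is that between these samples and could be technical.

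The follicle wall is remodelled while a follicle grows and when it ruptures at ovulation, and metalloproteinases and TIMPs from theca, stromal and granulosa cells take part. Mmp2 and Mmp9 are gelatinases that cleave basement membrane collagen, and Mmp14 is a membrane-bound collagenase. Timp2 has both roles in this system: it inhibits the enzymes, and it also bridges the precursor of Mmp2 to Mmp14 on the cell surface, where the precursor is cut to its active form. Timp3 is held in the matrix and also inhibits ADAM and ADAMTS proteases.

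The stretch upstream of the start site of each TIMP gene is shown for reference. No link between these sequences and the array values was tested. The sequences are RefSeq entries on GRCm38.p6, 250 bases ending at the base before the start site, read 5′ to 3′ on the gene's strand, with matches to the GC box (GGGCGG, either strand) in capitals. The AP-1 motif TGANTCA was searched on both strands of the same stretches. Timp1 lies at chrX:20869916-20870165 on the plus strand, Timp2 at chr11:118355412-118355661 on the minus strand and Timp3 at chr10:86300162-86300411 on the plus strand.
Timp1: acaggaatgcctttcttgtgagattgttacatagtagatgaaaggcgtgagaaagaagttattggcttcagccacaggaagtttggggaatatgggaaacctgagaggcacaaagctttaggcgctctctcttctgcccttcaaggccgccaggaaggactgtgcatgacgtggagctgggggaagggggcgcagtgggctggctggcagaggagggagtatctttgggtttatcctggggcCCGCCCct
Timp2: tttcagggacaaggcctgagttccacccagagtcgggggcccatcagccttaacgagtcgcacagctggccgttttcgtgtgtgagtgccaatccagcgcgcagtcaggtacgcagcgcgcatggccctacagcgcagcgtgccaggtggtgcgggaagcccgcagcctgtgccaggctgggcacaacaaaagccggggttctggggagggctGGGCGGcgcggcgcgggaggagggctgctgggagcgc
Timp3: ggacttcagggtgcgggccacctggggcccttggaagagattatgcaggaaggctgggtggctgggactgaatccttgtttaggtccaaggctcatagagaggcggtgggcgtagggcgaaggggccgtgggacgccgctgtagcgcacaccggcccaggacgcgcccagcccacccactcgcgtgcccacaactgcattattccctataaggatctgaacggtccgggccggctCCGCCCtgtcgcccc
Each of these stretches held 1 GC box and 0 AP-1 matches. Over all 32851 promoters of the table, 32.7% held a GC box and 6.7% an AP-1 match in the same window, so a single GC box is a common feature. G and C made up 54.4% of the Timp1 stretch, 68% of that of Timp2 and 65.6% of that of Timp3, against a median of 52.4% over all promoters. Promoters of 6 members were matched, the other 3 being those of Mmp11, with 2 GC boxes, Mmp14, also with 2, and Mmp23, with 0 in either of its 2 entries. None of these held an AP-1 match. Mmp2, Mmp9 and Mmp19 were not matched.

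The arrays of the groups differed in their scatter. Values on the scale log2(signal + 16), the scale of every log2 value here, correlated at 0.963 to 0.973 among ovary-derived arrays and at 0.844 to 0.896 among mesonephros-derived ones. RNA spikes that go in before amplification read at 15.3, 14.46 and 2.46 times the ovary-derived level in mesonephros-derived replicates 1, 2 and 3, against 0.677 to 1.78 times in the ovary-derived arrays. RNA integrity was read from the 3′ to 5′ ratio of Gapdh, which stood at 5.29, 3.48 and 2.63 against 1.94 to 2.86. Stromal and theca markers were present: 5 of 5 measured steroidogenic theca markers and 7 of 7 fibroblast markers passed the floor on low signals. Markers of other cell types passed it too, with 7 of 7 for smooth muscle, 9 of 10 endothelial, 8 of 10 macrophage and 4 of 7 granulosa. By contrast, 8 of 9 neutrophil and 4 of 7 epithelial markers lay below it on every array.

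No member differed between the groups at an adjusted p of 0.05 (limma, p adjusted over all 11703 genes tested). Of the 9 members 8 passed the floor, a signal of 99.4, and were tested, and 0 of 8 were past the threshold, as 0.0427% of all genes were. At an unadjusted p of 0.05, 1 of 8 members (Timp2) was past, against 13.7% of all genes. The groups did not overlap for that same member alone, against 22.2% of all genes, so neither share stood above the background. Log2 changes, mesonephros-derived minus ovary-derived, ran from −0.14 to 0.47 on the brightest probe set of each gene, with 5 of 8 above 0 (43.5% of all genes) and a median of 0.08, where the median over all genes was −0.08. The median SD between replicates of the 8 members was 0.33 log2 units among mesonephros-derived and 0.12 among ovary-derived arrays, against 0.48 and 0.21 over all genes.

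**Figure D1:**
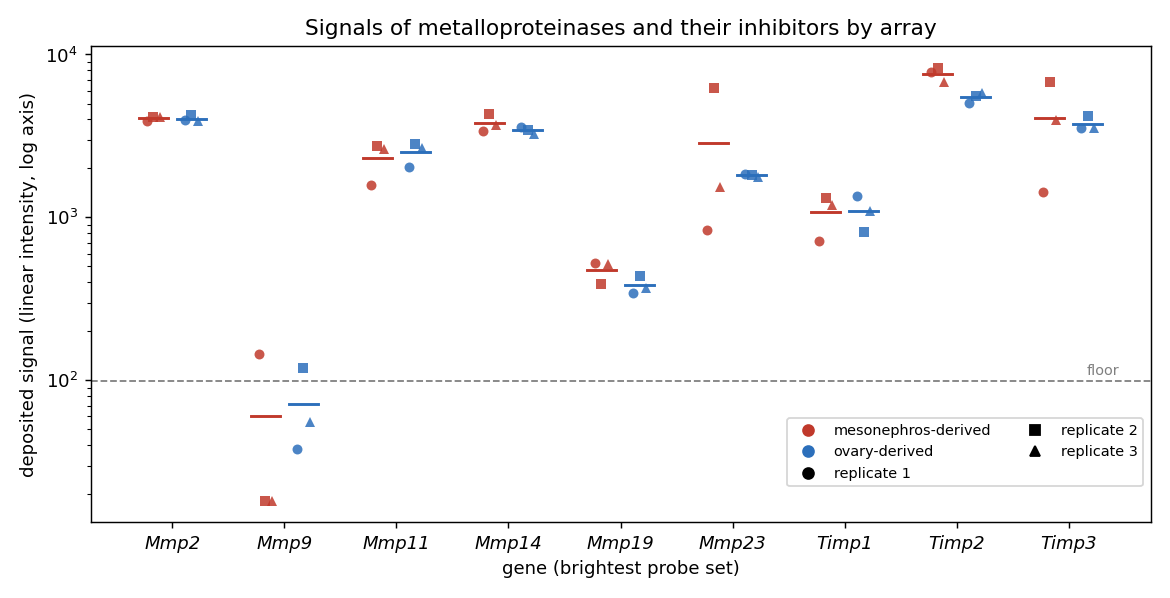
Deposited signal (log axis) of the brightest probe set of each of the 9 genes on every array, mesonephros-derived in red and ovary-derived in blue, with marker shapes for the replicates, bars for group means and a dashed line at the floor of 99.4. Timp2 is the gene whose 3 mesonephros-derived arrays all lie above the 3 ovary-derived ones, Mmp23 and Timp3 scatter widely in mesonephros-derived cells, and Mmp9 straddles the floor; heights cannot be compared between genes.

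Timp2 was the member with the largest log2 change on its brightest probe set. That probe set, 1433662_s_at, gave signals of 7784, 8307 and 6755 on the mesonephros-derived arrays (replicates 1, 2 and 3, the order used throughout) and of 5012, 5586 and 5828 on the ovary-derived arrays. All 3 mesonephros-derived arrays were above the highest ovary-derived one. The means were 7615 ± 790 and 5475 ± 419 (SD, n = 3 each), a 1.39-fold difference. On the log2 scale this was 0.47 ± 0.17 (SE), which did not pass the threshold (limma adjusted p = 0.302). The name of this probe set carries the suffix _s_at, which marks probes shared by several transcripts.

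Timp2 had 6 probe sets, all above the floor, and these gave the most complete view of a member. All 6 had a log2 change above 0, from 0.07 to 0.60. In 4 of the 6 the groups did not overlap, against 21.3% of all 27022 probe sets tested and 8.82% in this direction. Over the 155 genes with 6 tested probe sets, 6 genes (3.87%) had all 6 above 0 and 21 (13.5%) had all 6 below 0. Of the same genes 3 (1.94%), Timp2 included, had at least 4 with every mesonephros-derived array higher. That cutoff of 4 was the count of Timp2 itself, so the share only describes and is no test. Probe sets of 1 gene share the RNA and the arrays and are not replicates. The strongest, 1450040_at, read 5911, 6186 and 4195 against 3629, 3666 and 3314, or 0.60 ± 0.20 on the log2 scale (SE; adjusted p = 0.307 in limma over all probe sets). The groups again did not overlap, with mesonephros-derived replicate 3 nearest to the ovary-derived arrays.

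The 2 dimmest probe sets of Timp2 showed less difference. Probe set 1437081_at read 1583, 2018 and 1787 against 1637, 1562 and 1575 (log2 change 0.17 ± 0.20 SE), and 1420924_at read 1060, 1372 and 1271 against 1273, 1116 and 1124 (0.07 ± 0.22 SE). In both, mesonephros-derived replicate 1 lay within or below the range of the ovary-derived arrays. Probe sets 1450040_at, 1460287_at and 1420924_at were annotated to the same accession and stood at 0.60, 0.35 and 0.07, so the size of the Timp2 difference depended on the probe set. The mean over all 6 probe sets was 0.33 (limma adjusted p = 0.36).

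Spike signal and cell type markers also differed between the groups. The distance of Timp2 from the mean of the ovary-derived arrays was 0.51, 0.60 and 0.31 log2 units in the 3 mesonephros-derived arrays in turn. On these arrays the spikes read 15.3, 14.46 and 2.46 times the ovary-derived level. With the spike signal as a covariate the Timp2 change was 0.16 (limma adjusted p = 1.00), in a fit that cannot separate spike level from group. After quantile normalization the Timp2 change was 0.24 (limma adjusted p = 0.466), and 2 of the 6 probe sets, in place of 4, had groups that did not overlap. Markers of smooth muscle were also higher, with 7 of 7 above 0, 2 past the threshold (Myh11 and Tagln) and a summed signal of 67033 to 84386 in mesonephros-derived against 28202 to 32007 among ovary-derived arrays. Steroidogenic theca markers stood above 0 in 4 of 5 cases with a median of 0.86 (Cyp17a1, the androgen-forming enzyme, at 2.67) and a summed signal of 24455 to 42405 against 15011 to 22747, and 0 passed the threshold. Endothelial markers were below 0 in 8 of 9 cases with a median of −0.74, at 3924 to 6936 against 6263 to 9342. Without mesonephros-derived replicate 1 Tek turned from −0.56 to 0.26, and Emcn from 0.09 to −0.12. Vwf turned from −0.35 to 0.01 without mesonephros-derived replicate 3, and the other endothelial markers stayed below 0 without any 1 array. The part of the spike level and of these cell types in the Timp2 difference was not tested. In these bulk samples a larger share of cells of one type and more RNA per cell cannot be told apart.

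Timp1, an inhibitor of most secreted metalloproteinases, gave 1 probe set with signals of 721, 1319 and 1196 on mesonephros-derived and 1361, 812 and 1091 on ovary-derived arrays. The groups overlapped throughout, and the log2 change was −0.03 ± 0.31 (SE; 95% interval −0.72 to 0.67; limma adjusted p = 0.977). The interval leaves room for a change of over 0.6 in either direction. Its sign turned in 6 of 19 alternative settings.

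Timp3 had 4 probe sets, all annotated to the same accession, and all 4 stood below 0 while overlapping between the groups, at −0.30 to −0.07. The brightest, 1419089_at, read 1430, 6788 and 3987 in mesonephros-derived and 3557, 4164 and 3540 on ovary-derived arrays (−0.14 ± 0.47 SE; limma adjusted p = 0.908). Mesonephros-derived replicate 1 was the lowest and replicate 2 the highest of all 6 arrays. Probe set 1419088_at had the same order, at 1175, 2919 and 1901 against 2440, 2383 and 2093. Probe set 1449335_at read 2254, 2341 and 1959 against 2380, 2551 and 2139. The SD of the log2 values among mesonephros-derived arrays was 1.14 and 0.65 for the first 2 of these probe sets, 0.13 for 1449335_at and 0.20 for 1449334_at. On mesonephros-derived replicate 1 the 4 probe sets spanned 1.32 log2 units relative to the ovary-derived mean, and on the ovary-derived arrays at most 0.16. Without mesonephros-derived replicate 1 the change of 1419089_at turned to 0.47 (limma adjusted p = 0.312), and without replicate 2 it was −0.64.

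**Figure D2:**
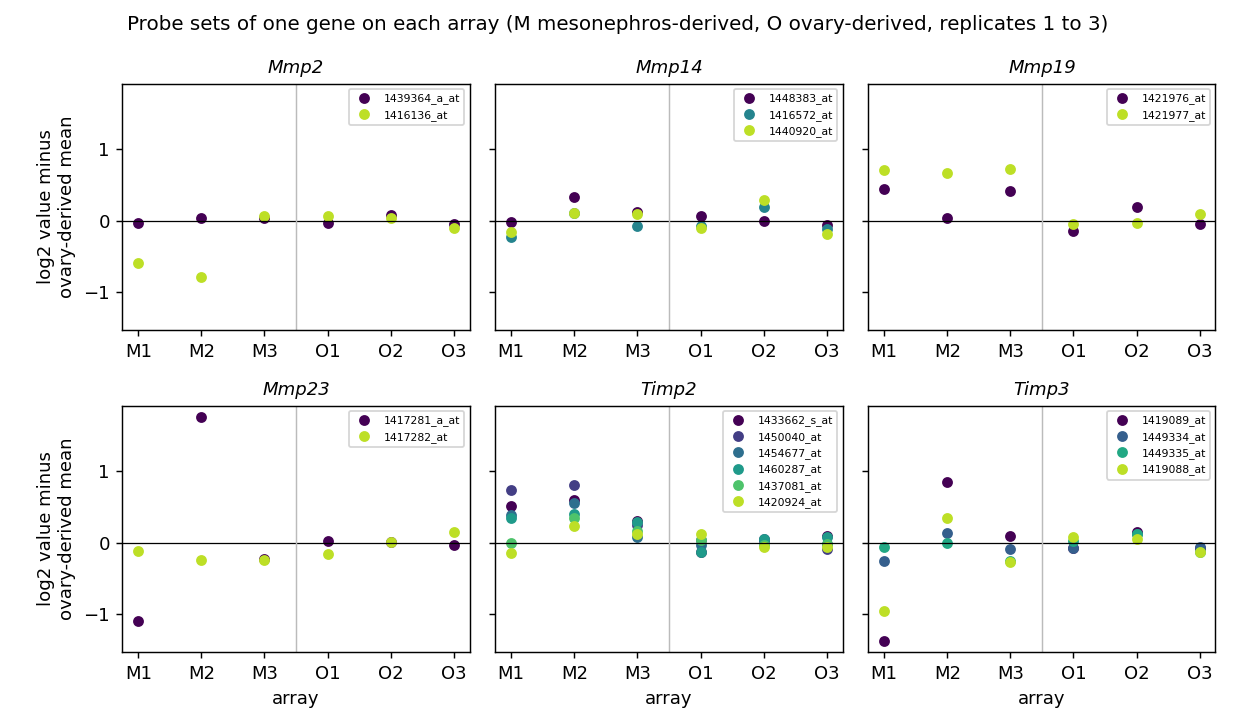
Log2 value of each tested probe set minus its ovary-derived mean, on each array (M mesonephros-derived, O ovary-derived), for the 6 members with more than 1 tested probe set. The probe sets of Mmp14 lie together on every array, those of Timp2 lie at or above 0 on the mesonephros-derived arrays except for 2 on replicate 1, and 1 probe set each of Mmp2 and Mmp23 and 2 of the 4 of Timp3 depart from their partners on mesonephros-derived replicates 1 and 2.

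Mmp14 was the enzyme whose probe sets differed least at their widest over the 6 arrays. Its brightest probe set, 1448383_at, read 3366, 4291 and 3715 on mesonephros-derived and 3567, 3417 and 3263 on ovary-derived arrays. The groups overlapped, with a log2 change of 0.14 ± 0.18 (SE; 95% interval −0.25 to 0.54; limma adjusted p = 0.736). The other 2 probe sets stood at −0.06 ± 0.20 and 0.01 ± 0.22. On no array did the 3 probe sets differ by more than 0.29 log2 units after centring.

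Mmp2, the gelatinase that Mmp14 activates, gave 2 probe sets that did not tell the same story. Probe set 1439364_a_at read 3921, 4148 and 4150 against 3938, 4262 and 3894, with a log2 change of 0.02 ± 0.16 (SE; 95% interval −0.35 to 0.38; limma adjusted p = 0.975). These arrays were nearly level. Probe set 1416136_at read 3015, 2617 and 4733 on mesonephros-derived and 4767, 4641 and 4222 on ovary-derived arrays, at −0.44 ± 0.23 (SE; limma adjusted p = 0.452 over all probe sets). Only mesonephros-derived replicates 1 and 2 were low, the arrays whose spikes read 15.3 and 14.46 times the ovary-derived level and whose Gapdh ratios were 5.29 and 3.48. The place of each probe set along the transcript is not given in the sources used here, and the part of RNA integrity was not tested. In the spike covariate fit, which cannot separate spike level from group, the change of 1416136_at turned to 0.33 ± 0.29 (SE). Without mesonephros-derived replicate 3 it was −0.69 (limma adjusted p = 0.117), without replicate 2 −0.26, and with array weights −0.25.

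Mmp19, a secreted enzyme found in follicle cells and macrophages, showed the largest log2 change among the 21 member probe sets that were tested. Probe set 1421977_at read 479, 464 and 484 on mesonephros-derived and 277, 279 and 306 on ovary-derived arrays. The groups did not overlap, and the spread within each was small, at 476 ± 10.6 and 287 ± 16.4 (SD, n = 3 each). The log2 change was 0.70 ± 0.30 (SE), 1.62-fold, and did not pass the threshold (limma adjusted p = 0.382 over all probe sets). It kept its direction after quantile normalization, at 0.76, and with the spike signal as a covariate, at 0.67 ± 0.53 (SE). The brighter probe set, 1421976_at, read 524, 391 and 514 against 343, 435 and 369. Here the groups overlapped and the log2 change was 0.30 ± 0.29 (SE; limma adjusted p = 0.662). Macrophage markers went the other way: 8 of 8 tested were below 0 with a median of −1.21, and of 10 measured 2 lay below the floor on every array. Their summed signal ranged from 1350 (replicate 1) to 11144 (replicate 2) over the mesonephros-derived arrays and from 5571 to 8501 over the others. Without mesonephros-derived replicate 1 the macrophage markers Lyz2, C1qb and C1qa stood at 0.49, 0.25 and 0.0024, and the other tested ones stayed below 0. Their part in the Mmp19 difference was not tested.

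Mmp23, a membrane-anchored enzyme abundant in reproductive tissues, varied most. Probe set 1417281_a_at read 834, 6185 and 1535 in mesonephros-derived cells against 1840, 1814 and 1774 in ovary-derived cells. The ovary-derived arrays were almost identical, while mesonephros-derived replicate 2 stood above them and replicates 1 and 3 below. The log2 change was 0.14 ± 0.59 (SE; limma adjusted p = 0.931) and turned to −0.67 without mesonephros-derived replicate 2 (adjusted p = 0.309). The other probe set, 1417282_at, read 449, 407 and 410 against 434, 492 and 539 (−0.20 ± 0.28 SE), with no high value on replicate 2. The 2 probe sets differed by 2.01 log2 units on that array after centring and by at most 0.18 on the ovary-derived arrays.

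Mmp11, also called stromelysin 3 and activated inside the cell by furin, had 1 probe set with signals of 1590, 2741 and 2627 against 2033, 2840 and 2649. In both groups replicate 1 was the lowest, and the groups overlapped. The log2 change was −0.14 ± 0.26 (SE; limma adjusted p = 0.834).

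Mmp9 was the only member that did not pass the floor. Probe set 1448291_at read 146, 18.3 and 18.3 on mesonephros-derived and 37.9, 120 and 55.6 on ovary-derived arrays, and 1416298_at read 5.70, 13.9 and 98.1 against 94.8, 58.9 and 105. On each probe set 2 of 3 ovary-derived arrays lay below the floor, and no array was above the floor on both. Signals at this level have no reliable order and no fold is given. Neutrophil markers, which mark a cell type rich in this enzyme, were not tested either, since 8 of the 9 measured lay below the floor on every array.

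**Figure D3:**
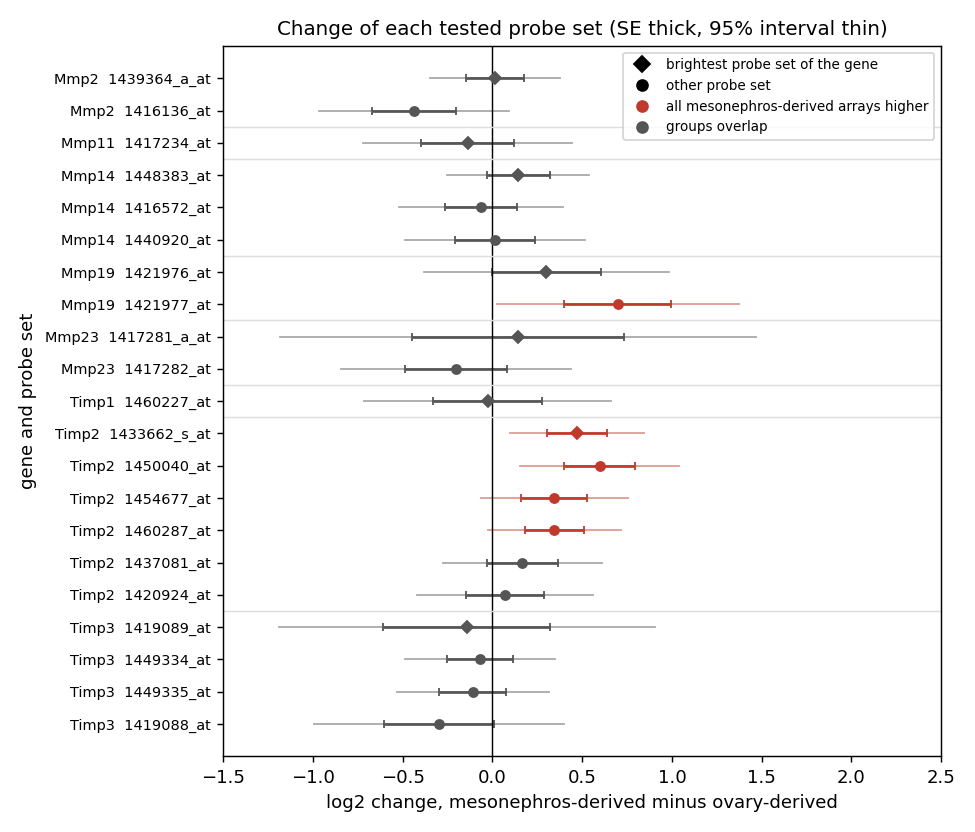
Log2 change of each of the 21 tested probe sets (points; diamonds mark the brightest of a gene) with its SE and 95% interval; red marks probe sets whose 3 mesonephros-derived arrays all exceed the ovary-derived ones. The 5 red points are 4 of the 6 Timp2 probe sets and 1 of the 2 of Mmp19.

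Counted over probe sets, 12 of the 21 tested stood above 0 (42% of all probe sets) and 9 below, with a median log2 change of 0.02 against −0.11 over all probe sets. The groups did not overlap for 5 of them, against 21.3% of all probe sets, and all 5 were higher in mesonephros-derived cells, against 8.82% of all probe sets in that direction. Of these 5, 4 belong to Timp2 and are not independent of each other. At an unadjusted p of 0.05 there were 3, namely 2 of Timp2 and 1 of Mmp19, against 12.9% of all probe sets, and 0 were past the adjusted threshold, against 0.0148%. After quantile normalization 3 of the 21 had groups that did not overlap, and after median centring 4.

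Enzyme and inhibitor RNAs were also set against each other within each array, which shows unequal change only. Each gene entered by its brightest probe set. The log2 ratio of Mmp2 to Timp2, as a difference from its ovary-derived mean, came to −0.55, −0.56 and −0.26 on the mesonephros-derived arrays, replicates in order, and to 0.09, 0.05 and −0.14 on the ovary-derived arrays. The groups did not overlap, with a mean difference of −0.46. For Mmp14 to Timp2 the values were −0.53, −0.27 and −0.18 against 0.19, −0.03 and −0.16. Here too the groups did not overlap, but mesonephros-derived replicate 3 was only just below ovary-derived replicate 3. After quantile normalization the mean differences were −0.34 and −0.19. The Mmp2 ratio stayed separated, while the closest arrays of the Mmp14 ratio, mesonephros-derived replicate 2 and ovary-derived replicate 3, stood at −0.1272 and −0.1264 and so nearly coincided. Since Mmp2 was near level on its brightest probe set, its ratio mirrors the Timp2 values. Those values depend on the probe set: on 1420924_at Timp2 stood at −0.14, 0.23 and 0.12 from its ovary-derived mean on the mesonephros-derived arrays. Ratios on other probe sets were not computed, so the separation is shown for the brightest ones only. Mmp14 stood at −0.02, 0.33 and 0.12 from its ovary-derived mean on the mesonephros-derived arrays, so its ratio reflects both genes. Ratios to Timp3 overlapped and were set by mesonephros-derived replicates 1 and 2, with Mmp2 to Timp3 at 1.34, −0.81 and −0.05. No ratio of Mmp9 to Timp1 is given, because Mmp9 lay below the floor.

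**Figure D4:**
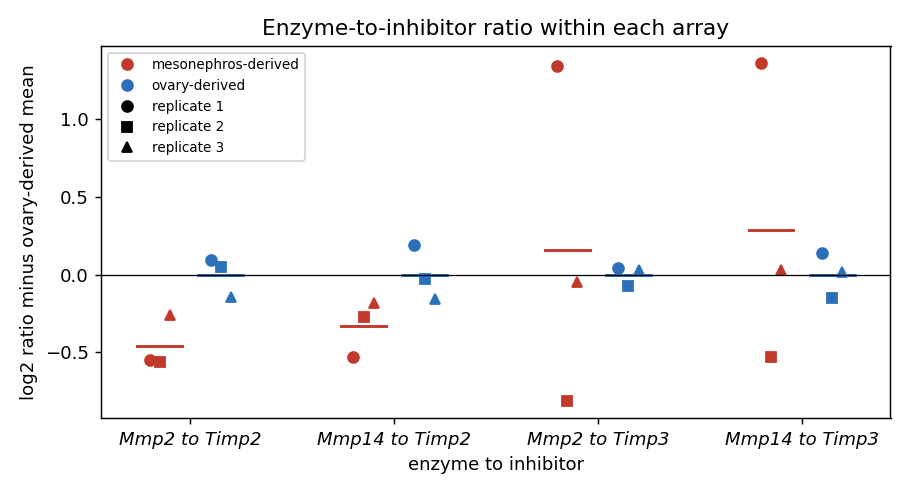
Log2 ratio of enzyme to inhibitor within each array, as the difference from the ovary-derived mean, for the 4 pairs in which both genes were tested; bars are group means. Each gene is represented by its brightest probe set. Both ratios to Timp2 lie lower on all 3 mesonephros-derived arrays, and both ratios to Timp3 spread on either side of 0.

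The remaining family members and partners were taken from fixed lists. Of 17 other metalloproteinases 12 were measured, 7 of these lay below the floor on every array and 3 were tested, all above 0 and overlapping: the membrane-type enzymes Mmp24 at 0.76 ± 0.56, Mmp17 at 0.50 ± 0.43 and Mmp16 at 0.29 ± 0.46 (SE). Each of these values rested on a single array. Mmp24 read 2706, 544 and 540 against 592, 471 and 578, and without mesonephros-derived replicate 1 it stood at −0.0049, as Mmp16 then did at −0.16. Mmp17 read 369, 433 and 989 against 335, 553 and 291 and stood at 0.08 without replicate 3. Of 8 further genes, inhibitors or relatives of inhibitors, 3 were tested. Reck, a membrane-anchored inhibitor, stood at −0.25 ± 0.24 and Spock2, a matrix proteoglycan, at −0.01 ± 0.31 (SE). The protease trap A2m stood at 0.89 ± 0.46 (SE), without overlap but with 2 of 6 arrays below the floor. Without mesonephros-derived replicate 1 Reck stood at −0.05 and Spock2 at −0.35. The median of these 3 genes, which was the Spock2 value before further scaling, turned from −0.01 to 0.0027 after quantile normalization and to 0.07 after median centring. The limma adjusted p-values of the 6 genes in both lists lay at 0.426 or above.

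Genes that activate or clear metalloproteinases were mixed, with 8 of 12 tested above 0, a median of 0.18 and 0 past the adjusted threshold. After quantile normalization 7 of 12 were above 0 with a median of 0.05, and after median centring 8 with a median of 0.26. Without mesonephros-derived replicate 1 Plat turned from −0.39 to 0.61 and Plaur from 0.21 to −0.06. Itgav turned from 0.05 to −0.03 without mesonephros-derived replicate 3. Lrp1, the endocytic receptor that takes up complexes of metalloproteinases and TIMPs, was among the non-overlapping genes with a signal of 5236 ± 584 on mesonephros-derived and 3436 ± 344 on ovary-derived arrays (SD, n = 3), or 0.60 ± 0.18 in log2 units (SE; adjusted p = 0.263 in limma). Pcsk6, a proprotein convertase, stood at −1.40 ± 0.40 (adjusted p = 0.253), its relative Pcsk7 at 0.66 ± 0.31 (0.383), and Plau, the urokinase that generates plasmin, at 0.42 ± 0.19 (0.365). Of 8 tested ADAM proteases 6 were above 0 with a median of 0.27, among them Adam12 at 0.79 ± 0.35, Adam19 at 0.45 ± 0.22, Adam33 at 0.85 ± 0.46 and Adam17 at 0.24 ± 0.27, and 0 passed. Without mesonephros-derived replicate 2 Adam12 stood at 0.42 and Adam17 at −0.0069, and without ovary-derived replicate 1 Adam33 stood at 0.54. Other ADAM genes also changed sign when 1 array was left out. Adam10 and Adam15, at −0.15 and −0.05 with all arrays, stood at 0.07 and 0.22 without mesonephros-derived replicate 1. Adam28 turned from 0.29 to −0.09 without ovary-derived replicate 1, and Adam9 from 0.13 to −0.0095 without ovary-derived replicate 3.

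The matrix proteins that these enzymes cut stood above 0 in 14 of 14 cases with a median log2 change of 0.53, and 0 passed the adjusted threshold. They included the collagen chains Col1a1 at 1.00 ± 0.23, Col1a2 at 0.84 ± 0.24, Col4a1 at 0.66 ± 0.18 and Col5a1 at 0.70 ± 0.21 (SE; limma adjusted p = 0.209 to 0.266). After quantile normalization 11 of 14 stood above 0 and the median was 0.12, while after median centring 14 of 14 did and the median was 0.61. The size of this shift thus differed between the scalings. Without mesonephros-derived replicate 1 the matrix proteins Lamb1 and Lamc1 stood at −0.20 and −0.07, and without replicate 3 Vcan stood at −0.28. Fibroblast markers, of which Dcn, Col1a1 and Col3a1 are also counted among the matrix proteins, stood above 0 in 6 of 7 cases with a median of 0.36, and after quantile normalization in 3 of 7 with a median of −0.02. Their summed signal ranged from 77347 to 108596 on mesonephros-derived and from 59520 to 67342 on ovary-derived arrays. Their part in the matrix values was not tested.

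**Figure D5:**
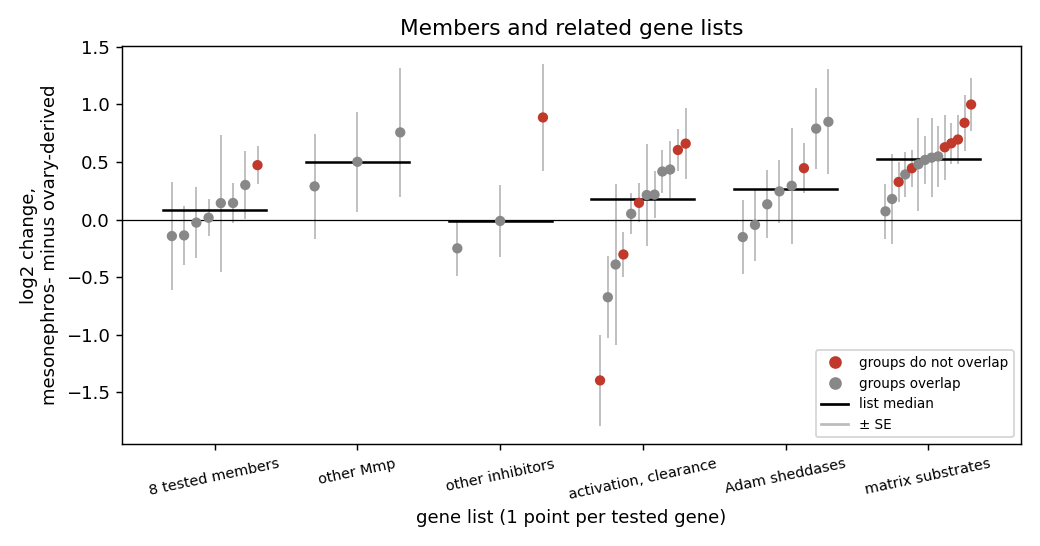
Log2 change with SE of each tested gene (1 point per gene) among the 8 tested members and 5 lists of related genes; black bars are list medians and red points are genes whose groups do not overlap. The members centre near 0 with a median of 0.08, and the matrix substrates lie above 0 with a median of 0.53.

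The gene with the most similar profile to each tested member was found from the root mean square difference of mean-centred log2 values over the 6 arrays. For Timp2 it was Afap1, an actin filament-associated protein, at a difference of 0.06 log2 units, with a log2 change of 0.43 ± 0.18 (SE). For Mmp14 it was Mxra8, a matrix remodelling-associated membrane protein, at 0.04. The nearest genes to the other members were 9530068E07Rik (Mmp2), 5730480H06Rik (Mmp11), Ggps1 (Mmp19), Dlg5 (Mmp23), Pitpnm2 (Timp1) and Zfp369 (Timp3), at 0.03 to 0.16. Within the family the closest pair was Mmp2 and Mmp14, at 0.12, and Mmp14 came only at place 161 among the genes nearest to Mmp2. With 6 arrays and 11703 genes a near match is to be had for any profile.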

How the data were processed

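RNA of 6 samples was amplified and hybridised to 1-colour arrays. The values the authors deposited are probe set intensities on a linear scale. MAS5 is the tool in the submitters' processing notes, with no version or settings stated. Trimmed by 2% at each end, the mean intensity came to 500 on each array, so no further scaling was applied. Control probe sets (64) stayed out of the tests. The other 45037 were moved to log2(signal + 16), which understates changes of dim genes. Each gene was represented by its brightest probe set, and those below the 40th percentile (a signal of 99.4) were not tested. No detection calls were used. limma 3.58.1 (R 4.3.3; lmFit, eBayes with an intensity trend) compared the groups, with p-values adjusted by Benjamini-Hochberg over all 11703 genes, and in a second fit over all 27022 probe sets above the floor. The script was tested on simulated data. Precision is limited by having 3 arrays in each group, and no 2 arrays held identical values. Symbols came from the platform annotation; a RefSeq table (GRCm38.p6) changed 0 of them.

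All members and their probe sets are named, with up to 4 genes of smallest p per related list and the nearest profile of each member. Where fewer are named, the counts cover the rest. Some further list genes are named where removal of 1 array turned their sign. Members and lists were chosen with earlier results of these data known. The markers of 9 cell types were followed, and those of granulosa cells (3 of 4 tested above 0) and lymphoid cells (1 of 1) enter no group comparison here. Alternatives covered the pseudocount (1 and 64), the floor (none or the 60th percentile), quantile normalization or centring on the median, the choice of probe set, the variance model, array weights, the spike signal as a covariate, a block for the replicate number and the removal of single arrays.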

Additional observations from a re-analysis of the deposited data

How the results depend on the processing

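Under all 19 alternatives 0 member genes and, in the 18 that apply, 0 member probe sets passed the threshold. Over all genes limma called 5, or 3 with a pseudocount of 1, 2 after median centring, 8 with probe sets averaged per gene, 129 with array weights, 0 (1504 and 305 genes at an unadjusted p of 0.05) without the intensity trend or with the spike covariate, and 0 to 46 without 1 array. Timp2, Mmp14 and Mmp19 kept their sign throughout, Timp2 at 0.16 to 0.60, Mmp19 at 0.23 to 0.50 and Mmp14 at 0.03 (averaged probe sets) to 0.23 (without mesonephros-derived replicate 1), with 0.05 without replicate 2 and 0.05 after quantile normalization. For genes of the related lists, leaving out 1 array was chosen after seeing the data. Signs turned for Mmp2 (−0.10 after quantile normalization, −0.21 with averaged probe sets, −0.0088 to 0.056 without 1 array), Mmp11 (0.087 with the spike covariate, −0.28 to 0.11 without 1 array), Mmp23 (−0.029 with averaged probe sets, −0.31 with the covariate, −0.67 to 0.76 without 1 array), Timp1 (0.048 after quantile normalization, 0.051 after median centring, 0.24 with array weights, 0.30 with the covariate, −0.22 to 0.24 without 1 array) and Timp3 (0.27 with the covariate, −0.64 to 0.47 without 1 array). The causes were not tested. Same-numbered samples had deviations from their group means that correlated at −0.01 to 0.07. With 3 arrays in each group this cannot settle whether the numbers mark pairs, and the labels do not say. With the replicate block 0 members and 4 genes were called and Timp2 had a limma adjusted p of 0.438.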
